A study of Mus musculus with 4 samples.

Results

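Iron handling in the liver was followed here through 8 genes, Hamp, Bmp2, Bmp6, Tfr2, Tfrc, Trf, Slc40a1 and Id1, of the 32285 mouse genes in the count matrices. They were chosen by name as members of the BMP-hepcidin pathway and not by a measured value in a given comparison. The data were single-nucleus RNA-seq counts from livers of Bl/6 mice. Mice received a CD or a low-protein diet (LPD) for 1 week, were then injected, and stayed on the same diet for 2 more weeks. Plasmids were given by hydrodynamic injection into the tail vein, which reaches a small part of the hepatocytes, with the Sleeping Beauty transposase for insertion into the genome. Oncogene mice received human c-MET and β-catenin, and control mice the vector. Each of the 4 combinations was 1 library of nuclei from frozen liver, and the number of mice behind a library is not given in the sources used here. Mice of the tumour experiments were male and 6 to 8 weeks old. Values given as a series of 4 follow the order CD control and CD oncogene, then LPD control and LPD oncogene. With 1 library per group, differences between diets and injections had no replicate check, and the 95% intervals given below cover counting error only.

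Systemic iron is set by the liver through hepcidin, the peptide encoded by Hamp. Sinusoidal endothelial cells release the ligands BMP2 and BMP6, which act on hepatocyte BMP receptors with the co-receptor hemojuvelin and, through SMAD proteins, raise transcription of Hamp, Id1 and other targets. TFR2 senses iron-loaded transferrin, the carrier protein encoded by Trf, while TFRC takes transferrin iron into cells. Hepcidin binds ferroportin, the iron exporter encoded by Slc40a1, and leads to its breakdown, so that macrophages, which recycle the iron of old red cells, and gut cells release less iron. A second input runs from IL6 through STAT3 to the Hamp promoter.

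In mm10 coordinates with the GENCODE annotation, Hamp lies on the minus strand at chr7:30942368-30944032, next to its paralog Hamp2 at chr7:30922372-30924681. The other members are Bmp2 at chr2:133552159-133562885, Bmp6 at chr13:38345107-38500302, Tfr2 at chr5:137569840-137587481, Tfrc at chr16:32608920-32632794, Trf at chr9:103204001-103230444, Slc40a1 at chr1:45908068-45926523 and Id1 at chr2:152736251-152737410, and all 8 are protein-coding. The upstream sequences of Hamp and Hamp2 are shown because both paralogs were ordered alike by injection label within each diet, as given below. They are the 250 bases before the RefSeq starts on the minus strand of GRCm38.p6, at chr7:30944030-30944279 for Hamp and chr7:30924182-30924431 for Hamp2. Capitals mark the letters GGCGCC, a core of the BMP-responsive element that SMAD proteins read, or the aligned bases of Hamp2, and TTCNNNGAA, a form of the STAT site.
Hamp: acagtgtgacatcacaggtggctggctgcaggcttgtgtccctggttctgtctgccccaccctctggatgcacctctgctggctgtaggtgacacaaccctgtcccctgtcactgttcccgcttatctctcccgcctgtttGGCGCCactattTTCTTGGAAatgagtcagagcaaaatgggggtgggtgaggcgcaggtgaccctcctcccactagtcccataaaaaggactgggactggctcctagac
Hamp2: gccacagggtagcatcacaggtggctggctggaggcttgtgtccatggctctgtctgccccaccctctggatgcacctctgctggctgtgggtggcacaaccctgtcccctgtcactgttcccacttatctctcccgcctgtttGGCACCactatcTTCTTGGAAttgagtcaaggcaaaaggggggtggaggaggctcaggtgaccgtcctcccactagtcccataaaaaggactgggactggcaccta
Over 247 aligned bases the sequences were identical at 227, or 91.9%. GGCGCC began 109 bases before the start of Hamp, and the aligned hexamer of Hamp2 differed by G4A, counted from 1 at the 5′ end of the motif. TTCNNNGAA began 97 bases before the start of Hamp and 94 before that of Hamp2. Both motifs read the same on either strand and did not overlap. Among 32851 promoter windows of the RefSeq table, 9.59% held GGCGCC and 7.02% held TTCNNNGAA. Of the other members, 1 of the 2 windows of Tfrc held GGCGCC, 89 bases before that start, while the windows of Bmp6 and Tfr2 held neither motif. Bmp2, Trf, Slc40a1 and Id1 had no entry in that table.

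A total of 42877 nuclei were kept, between 9825 and 12552 per library, with median depths of 3807 UMIs (unique transcript molecules) in the library labelled CD control, 3294 in CD oncogene, 1962 in LPD control and 1762 in LPD oncogene. Depth and the median mitochondrial share (2.42% and 0.983% on CD, 0.1% and 0.127% on LPD) both separated the diets, so a difference between diets cannot be told apart from a difference between these pairs of libraries. Any 2 libraries shared 16 to 35 barcodes. UMIs of the 2 human transgenes went against the CD labels: the library labelled CD control held 100, CD oncogene 0, LPD control 0 and LPD oncogene 6. The study's own text gives its CD vector group more nuclei than its CD oncogene group, whereas the library labelled CD control held fewer barcodes (11063) than the one labelled CD oncogene (13014). Libraries are therefore named by their labels throughout, no direction on CD is read as an effect of the oncogenes, and CPM stands for UMIs per 1000000 mouse UMIs of the same nuclei. Clusters were named from marker lists that held none of the members. The 26321 nuclei called hepatocytes were the 4 clusters in which no other cell type's list was raised and haemoglobin genes did not lead, and their hepatocyte markers summed to 16423 to 21036 CPM with all 10 of them detected. Hepatocyte RNA was abundant elsewhere, and the same list summed to between 0.344 and 1.13 times the hepatocyte level in every other named class. Whether this was free RNA or came from mixed droplets was not tested. A further 5901 nuclei, in 2 clusters led by haemoglobin genes, were left unnamed, and the list stood there at 1.86 to 2.02 times the hepatocyte level of the same library. Levels of Hamp, Tfr2 and Trf in the other named classes are given as background.

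The ligands Bmp2 and Bmp6 were found in sinusoidal endothelial nuclei. These were 555 nuclei in the library labelled CD control, 484 in CD oncogene, 524 in LPD control and 879 in LPD oncogene, in which all 11 of their markers that entered the sum were detected. Bmp2, the ligand that keeps basal hepcidin up, stood at 253, 148, 447 and 425 CPM, from 84 to 335 UMIs. The intervals were 217 to 293 and 118 to 184 CPM on CD, and 385 to 515 and 380.5 to 473 CPM on LPD. Both LPD libraries lay above both CD libraries, and the share of nuclei with a Bmp2 UMI was 25.05%, 13.2%, 27.9% and 27.8%. Bmp6, the ligand that follows liver iron stores, stood at 728 CPM (667 to 794) and 534 CPM (475 to 597) on CD, and at 1169 CPM (1069 to 1276) and 704 CPM (646 to 765) on LPD. Here the groups overlapped, with LPD control highest and LPD oncogene between the CD libraries.

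Between injection labels, Bmp2 of sinusoidal endothelial nuclei differed by a log2 ratio of -0.77 (-1.16 to -0.39) on CD and -0.07 (-0.33 to 0.19) on LPD, oncogene over control. For Bmp6 the ratios were -0.45 (-0.66 to -0.24) and -0.73 (-0.91 to -0.55). Past 2-fold was 1 of 6 members tested on each diet, namely Hamp, read as background here. Of all genes, 7.24% were past 2-fold higher and 5.89% lower on CD, and 1.1% and 1.89% on LPD. In the 4 pairs that set an LPD against a CD library, which share libraries, no member of 5 tested was past 2-fold in 1 direction throughout, beside 1.51% of 3579 genes higher and 2.1% lower. The 4 ratios of Bmp2, LPD over CD, ran from 0.75 to 1.59, and those of Bmp6 from -0.05 to 1.13. The median over all genes tested was itself 0.2 to 0.39 in these pairs, and -0.17 and -0.02 between the labels on CD and LPD.

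The library labelled CD oncogene held less of the sinusoidal identity in this class. Its own markers summed to 6190 CPM against 12343 in CD control, 14482 in LPD control and 16743 in LPD oncogene, and its hepatocyte list stood at 0.946 of the hepatocyte level against 0.836, 0.628 and 0.417. Per 1000 UMIs of the class markers, Bmp2 was at 20.5 (17.6 to 23.7), 24.0 (19.1 to 29.7), 30.8 (26.6 to 35.5) and 25.4 (22.7 to 28.2). On that scale CD oncogene was no longer the lowest, and the intervals of most libraries overlapped. Bmp6 was at 59.0, 86.2, 80.7 and 42.0 on that scale, which put LPD oncogene lowest (38.6 to 45.7). The part of marker content in these differences was not tested further.

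**Figure D1:**
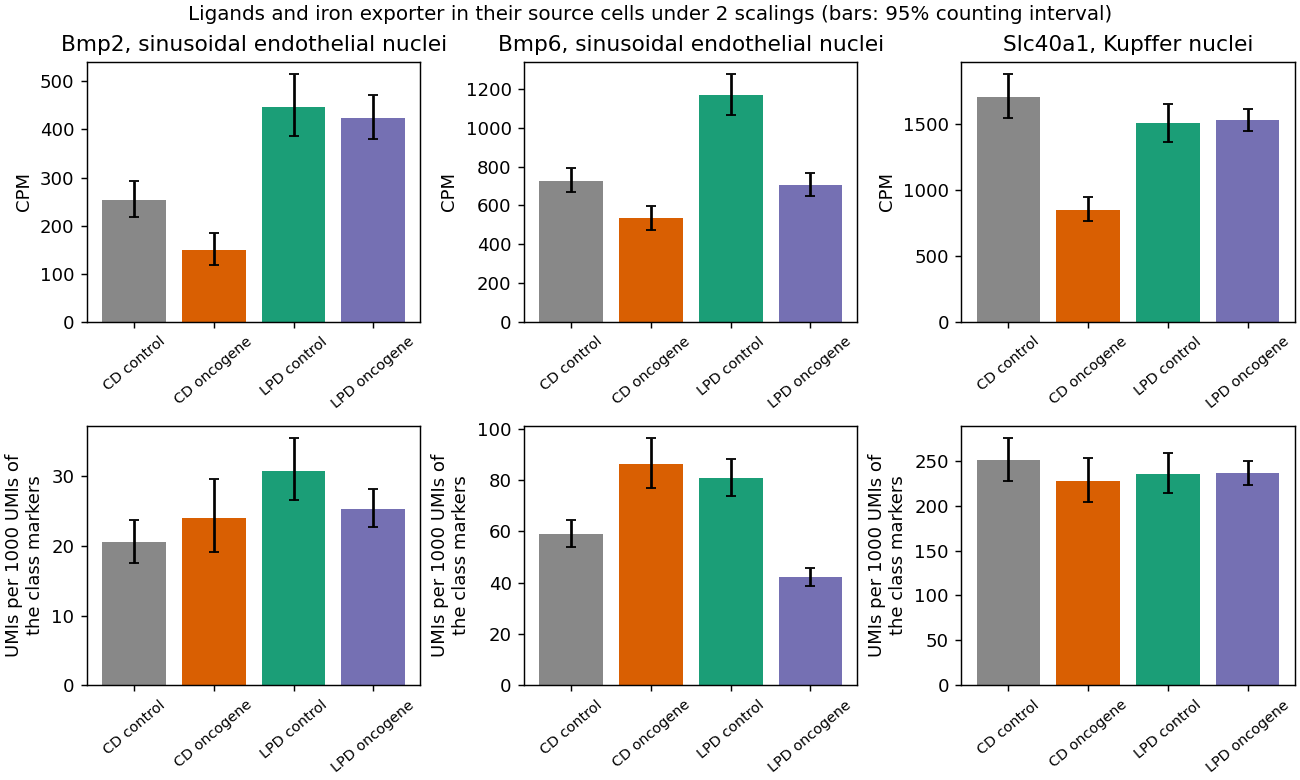
Bars give Bmp2 and Bmp6 in sinusoidal endothelial nuclei and Slc40a1 in Kupffer nuclei for each library by its label, as CPM (upper row) and as UMIs per 1000 UMIs of the class markers (lower row), with 95% counting intervals and 1 library per bar. Kupffer Slc40a1 ranged from 850 to 1708 CPM but from 228 to 251 per 1000 marker UMIs.

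Within the sinusoid, neither ligand passed the test between portal and central endothelium. Nuclei were split by counts of central and portal markers, none of them a member, and their sums were compared with edgeR's quasi-likelihood test with the library as a block. Of 4130 genes, 0.92% were higher and 0.896% lower at the central side, and no member passed. Tfrc and Id1 were too sparse to be kept. Bmp2 differed by a log2 change of 0.03 (SE 0.14, edgeR adjusted p = 0.978) and Bmp6 by -0.08 (SE 0.11, adjusted p = 0.901). The values were -0.28 for Hamp, -0.22 for Tfr2, -0.33 for Trf and -0.03 for Slc40a1, with edgeR adjusted p between 0.112 and 0.988. Of the pathway lists, 0 of 14 BMP-SMAD genes were higher at the central side and 2 lower, 1 of 12 iron handling genes was higher and 0 lower, and 0 of 6 IL6-STAT3 genes were higher and 2 lower. Bmpr2, a type II BMP receptor, fell by 0.56 (SE 0.12, adjusted p = 0.000975), and Bmper, a secreted BMP modulator, fell by 1.4996 (SE 0.35, adjusted p = 0.0052). Jak1 and Il6st, which carry the IL6 signal, fell by 0.46 and 0.42, and Slc25a37, a mitochondrial iron carrier, rose by 0.80 (SE 0.22, adjusted p = 0.0336).

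Across the classes with at least 50 nuclei, the order of Bmp2 began with sinusoidal endothelium at 148 to 447 CPM. Every other class stood at 41.6 CPM or lower in each library, with ranges that overlapped, and hepatocytes at 0.984 to 1.70 CPM. Bmp6 had a second source, since vascular endothelium, the cells lining portal and central veins, held 324 to 494 CPM against 534 to 1169 CPM in the sinusoid. Cholangiocytes followed at 27.4 to 122 CPM, overlapping with Kupffer nuclei at 20.01 to 57.8 CPM, and hepatocytes held 1.505 to 2.30 CPM. The sinusoidal level was 137 to 432 times the hepatocyte level for Bmp2 and 232 to 577 times for Bmp6.

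**Figure D2:**
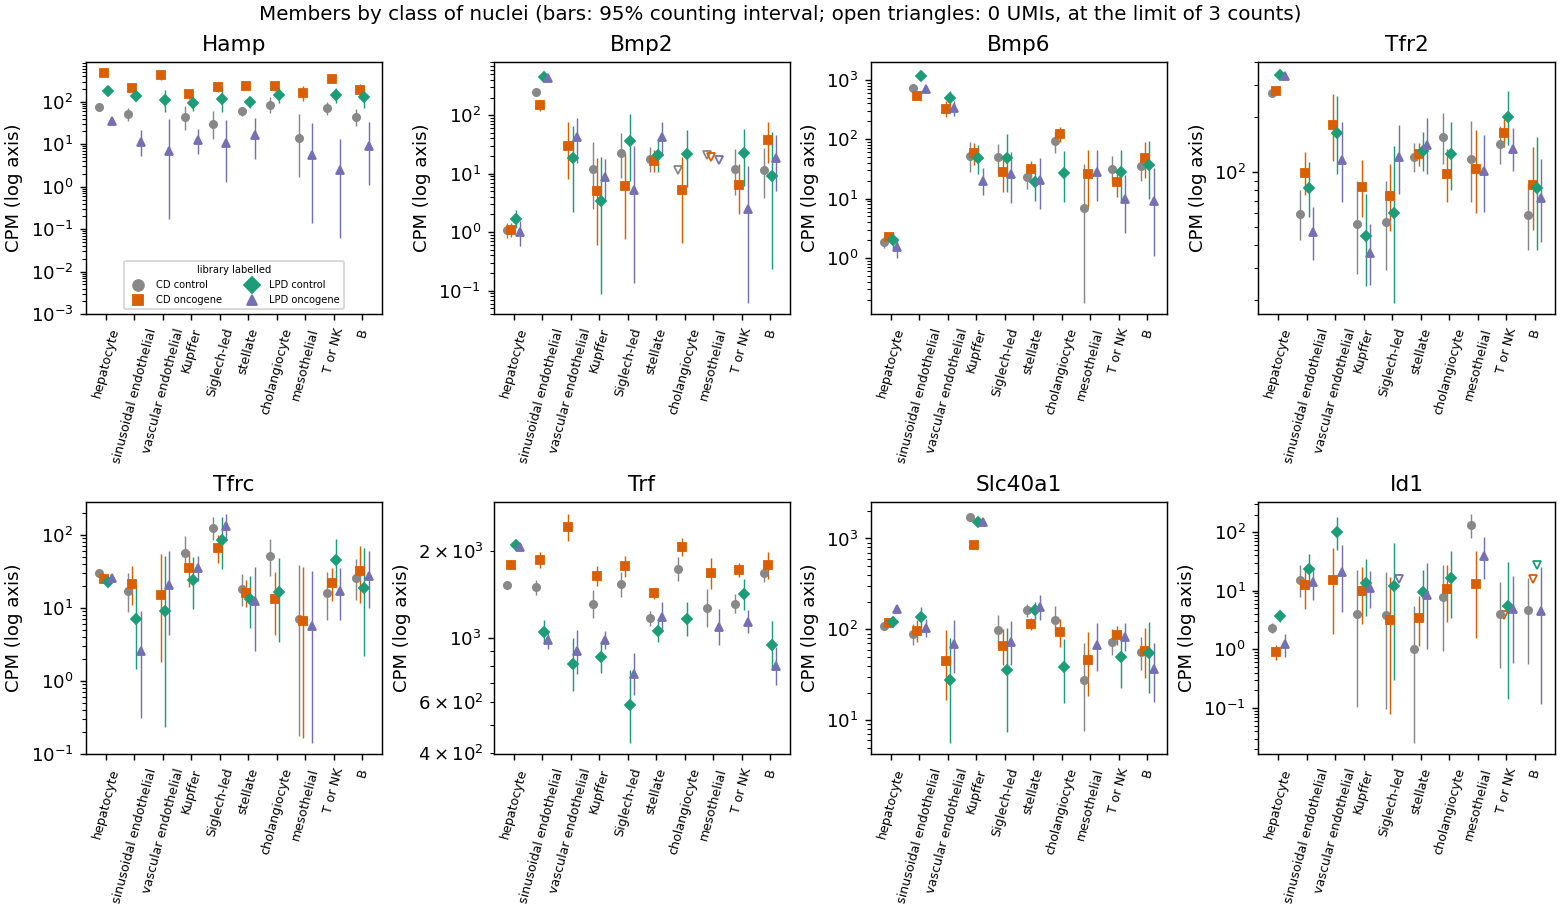
Points give CPM of each member (log axis) in 10 classes of nuclei for each library by its label, with 95% counting intervals. Sets under 50 nuclei are left out, and open triangles mark 0 UMIs at the limit of 3 counts. Bmp2 and Bmp6 peaked in endothelium and Slc40a1 in Kupffer nuclei, while Trf was spread over all classes in each library. Hamp was under the limit of 3 counts in several sets, mainly of LPD oncogene, where T or NK nuclei held 1 UMI.

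Among the iron sensors of hepatocytes, Tfr2 differed little between injection labels, by log2 ratios of 0.03 (-0.01 to 0.06) on CD and -0.01 (-0.06 to 0.05) on LPD. Tfr2, the hepatocyte transferrin receptor that adjusts hepcidin, stood at 273 and 278 CPM on CD, with intervals of 268 to 278 and 273 to 283 CPM. On LPD it stood at 338 and 337 CPM, with intervals of 329.97 to 347 and 329 to 346 CPM. Both LPD libraries were above both CD libraries by log2 ratios of 0.28 to 0.31, while the median over all hepatocyte genes was 0.12 to 0.25 in those pairs. Tfrc, the receptor that imports transferrin iron, stood at 29.6 CPM (28.0 to 31.2) and 24.6 CPM (23.3 to 26.0) on CD. On LPD it was at 22.3 CPM (20.2 to 24.5) and 25.6 CPM (23.3 to 28.1), so the diets overlapped. Its oncogene over control ratios were -0.27 (-0.38 to -0.15) on CD and 0.20 (0.01 to 0.40) on LPD. With TMM scaling the CD ratio of Tfrc was -0.06.

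In the class order, Tfr2 was highest in hepatocytes (273 to 338 CPM), overlapping with the unnamed clusters led by haemoglobin genes (221 to 344 CPM). T or NK nuclei (135 to 201 CPM) came next and overlapped with most of the remaining classes. Tfrc was highest outside the hepatocytes, in a leukocyte cluster of 680 nuclei led by Siglech and Runx2, which held 65.2 to 131 CPM, 2.65 to 5.11 times the hepatocytes of the same library. Kupffer nuclei held 24.1 to 56.2 CPM of Tfrc, from 7 to 28 UMIs, and their intervals overlapped with those of hepatocytes in all 4 libraries.

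Hamp differed most, and by the labels in opposite directions on the 2 diets. In hepatocytes it stood at 75.3 CPM (72.8 to 77.9) in the library labelled CD control and 466 CPM (460.3 to 472) in CD oncogene. On LPD it stood at 179 CPM (173 to 186) in the control and 34.7 CPM (31.96 to 37.6) in the oncogene library. These values rested on 3326, 23725, 3369 and 599 UMIs, and no intervals overlapped. On CD the library labelled oncogene was 6.19-fold above the one labelled control, a log2 ratio of 2.63 (2.58 to 2.68), and on LPD the ratio was -2.37 (-2.50 to -2.25). Within each diet, the lower level was in the library that held transgene UMIs. Hamp was the 1 member past 2-fold among 5 tested in each diet, beside 2.45% of 6459 genes past 2-fold higher and 2.09% lower on CD, and 1.56% of 6809 higher and 1.03% lower on LPD. The median over all genes was -0.10 on CD and -0.03 on LPD, and Hamp kept its direction under every alternative run, single zones and clusterings included, with log2 ratios after adding a pseudocount of 2.18 to 3.24 on CD and -3.21 to -1.09 on LPD.

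**Figure D3:**
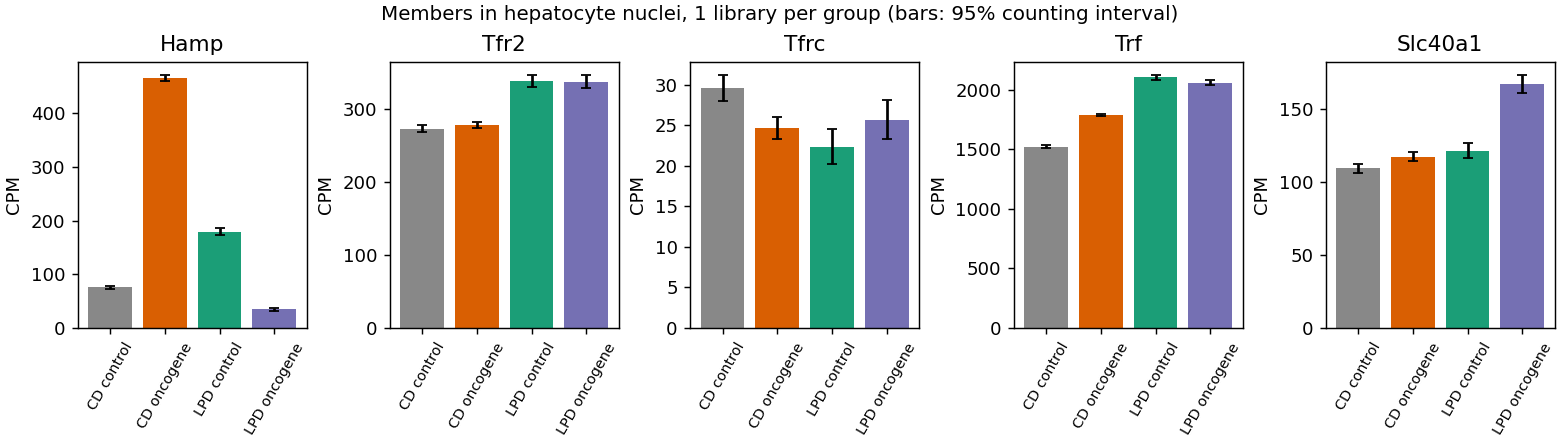
Bars give CPM of the 5 members with at least 20 CPM in hepatocyte nuclei, for each library by its label, with 95% counting intervals and 1 library per bar. Hamp ran from 34.7 to 466 CPM, while each of the other 4 stayed within 2-fold across the libraries.

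The diet pairs of Hamp had no common direction. LPD over CD was 1.25 between the control labels, -1.38 for LPD control over CD oncogene, -1.12 for LPD oncogene over CD control and -3.75 between the oncogene labels. No hepatocyte member was past 2-fold in the same direction in all 4 pairs, beside 2.5% of 6492 genes higher and 1.36% lower. The share of hepatocyte nuclei with a Hamp UMI followed the levels, at 18.2%, 62.6%, 26.5% and 5.27%, and after thinning each nucleus to 500 UMIs it was 3.26%, 17.7%, 7.81% and 1.64%. B nuclei, which do not make hepcidin, held a Hamp UMI in 4.52%, 20.6%, 8.78% and 0.702% of nuclei. Median depths were 1025, 1079, 662 and 698 UMIs in B nuclei, against 5671.5, 4768, 2559 and 2660.5 in hepatocytes. Thinned to 500 UMIs, B nuclei held a Hamp UMI in 2.66%, 9.68%, 2.70% and 0.351%. Background thus moved with the hepatocyte level between libraries, and Hamp in other classes is not read as expression. In CD control, T or NK nuclei held 71.3 CPM of Hamp and cholangiocytes 85.5 CPM, near the hepatocyte level given above. B and Kupffer nuclei held less there, at 44.2 CPM each. The hepatocyte level of that library was therefore not set apart from that of every other class.

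Each hepatocyte cluster showed the same directions. The cluster with Sds and Hal, periportal amino acid enzymes, among its leading genes gave 2.98 on CD and -1.55 on LPD, and the one with Cyp7a1 and Cyp2e1, which are pericentral, gave 2.56 and -3.31. The cluster led by mitochondrial genes gave 2.65 and -1.54, and that led by Glul and Slc1a2, a pair of genes active next to the central vein, gave 1.25 and -3.29. Clusters of 1 library are not replicates. Nuclei of 2 clusters led by haemoglobin genes, which were given no name, held 87.4, 658, 385 and 54.6 CPM of Hamp, in the same order of libraries.

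The paralog Hamp2, a near copy of the gene, was ordered as Hamp was within each diet. It held 4.96 and 7.55 CPM on CD and 2.88 and 0.521 CPM on LPD, control label first, from 219, 384, 54 and 9 UMIs. Reads that match both genes could have been split or dropped in counting, so the levels of both are uncertain, and the size of this was not tested. Id1, an inhibitor of bHLH factors and a direct BMP-SMAD target, was sparse in hepatocytes, with 104, 45, 70 and 21 UMIs or 2.36, 0.884, 3.73 and 1.22 CPM. Both libraries labelled oncogene lay below both labelled control, at -1.41 (-1.95 to -0.90) on CD and -1.62 (-2.40 to -0.90) on LPD. Id1 was under the level set for a call. On CD, Id1 and Hamp differed in opposite directions between the labels, and on LPD in the same one. In other classes Id1 reached 133 CPM in mesothelium of CD control, from 19 UMIs, and 101 CPM in vascular endothelium of LPD control, from 11 UMIs. In the remaining sets of at least 50 nuclei, these classes held 13.04 to 39.6 and 15.1 to 20.7 CPM. The CD oncogene values, from 2 UMIs each, were under the 3-count limits of 19.6 and 22.6 CPM. Sinusoidal endothelium held 12.4 to 23.4 CPM.

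Along the lobule, Hamp had no common gradient. Hepatocytes were ordered by pericentral minus periportal markers, none of them a member, and cut into 3 zones with each library weighted alike. The score is continuous, with 478 to 624 nuclei per library near a boundary. Its pericentral markers include Glul and Lgr5, which the paper reports as high in oncogene-expressing hepatocytes. Zones are thus zones of marker expression and not measured positions. From periportal through midzonal to pericentral, Hamp stood at 54.5, 58.8 and 92.1 CPM in CD control and at 411, 598 and 436 CPM in CD oncogene. It stood at 117, 228 and 226 CPM in LPD control and at 52.1, 40.4 and 20.03 CPM in LPD oncogene. The CD control levels spanned that of T or NK nuclei of the same library, given above. The log2 ratio of pericentral over periportal zones was 0.76 (0.61 to 0.90), 0.09 (0.04 to 0.13), 0.96 (0.83 to 1.08) and -1.38 (-1.71 to -1.05), so LPD oncogene alone sloped to the periportal side. Over libraries the difference was 0.24 (SE 0.35, edgeR adjusted p = 0.692), and the midzonal difference from the other zones was 0.24 (SE 0.29, adjusted p = 0.917).

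**Figure D4:**
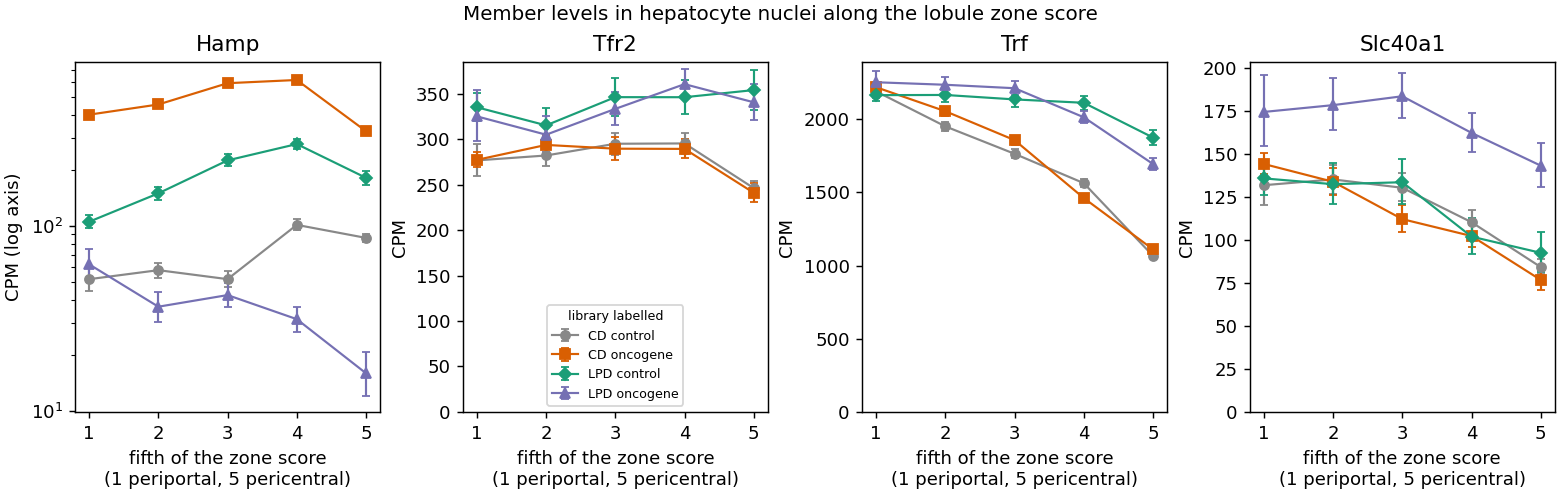
Lines give CPM of Hamp (log axis), Tfr2, Trf and Slc40a1 in hepatocyte nuclei over 5 bins of the zone score, from periportal (1) to pericentral (5), for each library by its label, with 95% counting intervals. Hamp was highest in bin 4 of the libraries labelled CD control, CD oncogene and LPD control, and in bin 1 of LPD oncogene.

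In 5 bins of the same score, Hamp was highest in the bin next to the pericentral end in 3 libraries. That bin held 101 CPM (94.6 to 108) in CD control, 616 CPM (600.3 to 631) in CD oncogene and 277 CPM (260.5 to 295) in LPD control. The last bin held 86.1, 325 and 182 CPM. In LPD oncogene the level ran from 62.0 CPM (50.5 to 75.3) in the first bin to 15.96 CPM (12.02 to 20.8) in the last. The difference between injection labels was present in each zone, with log2 ratios on CD of 2.91, 3.35 and 2.24 and on LPD of -1.16, -2.49 and -3.50, from periportal to pericentral. Zone shares differed between libraries too, with 18.9%, 46.7%, 45.6% and 22.1% of hepatocytes in the periportal zone.

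The genes of iron carriage, uptake and export were graded. Of the 8 members, 3 were lower in the pericentral than in the periportal zone and none was higher, beside 12.9% of 12904 genes lower and 11.9% higher by edgeR. Slc40a1 fell by 0.54 on the log2 scale (SE 0.07, adjusted p = 9.37e-05), Trf by 0.54 (SE 0.12, adjusted p = 0.0082) and Tfrc by 0.39 (SE 0.08, adjusted p = 0.00282), edgeR's quasi-likelihood test. The call of Trf was lost without the library labelled CD control (adjusted p = 0.0542) or CD oncogene (adjusted p = 0.0531). Tfr2 differed by -0.01 (SE 0.07, adjusted p = 0.937), and Bmp2, Bmp6 and Id1, sparse here, by -0.06, -0.11 and -0.04. Between midzonal and other zones no member passed, beside 0.558% of genes higher and 0.116% lower.

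Per library, the gradient of Slc40a1 had 1 direction, with log2 ratios of -0.55 and -0.70 on CD and -0.47 and -0.21 on LPD. Its periportal levels were 133, 141, 136 and 175 CPM and its pericentral levels 90.7, 86.9, 98.2 and 151 CPM. For Trf the ratios were -0.80 (-0.83 to -0.77) and -0.80 (-0.83 to -0.78) on CD and -0.11 (-0.14 to -0.07) and -0.31 (-0.35 to -0.27) on LPD. The diets differed at the pericentral end, where Trf stood at 1188 and 1238 CPM on CD and 1997 and 1844 CPM on LPD, against 2069 to 2280 CPM at the periportal end of all 4 libraries. Tfrc ratios were -0.29, -0.14, -0.75 and -0.32, and the intervals of CD oncogene and LPD oncogene included 0. Tfr2 ratios were -0.08 and -0.10 on CD and 0.11 and 0.21 on LPD.

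**Figure D5:**
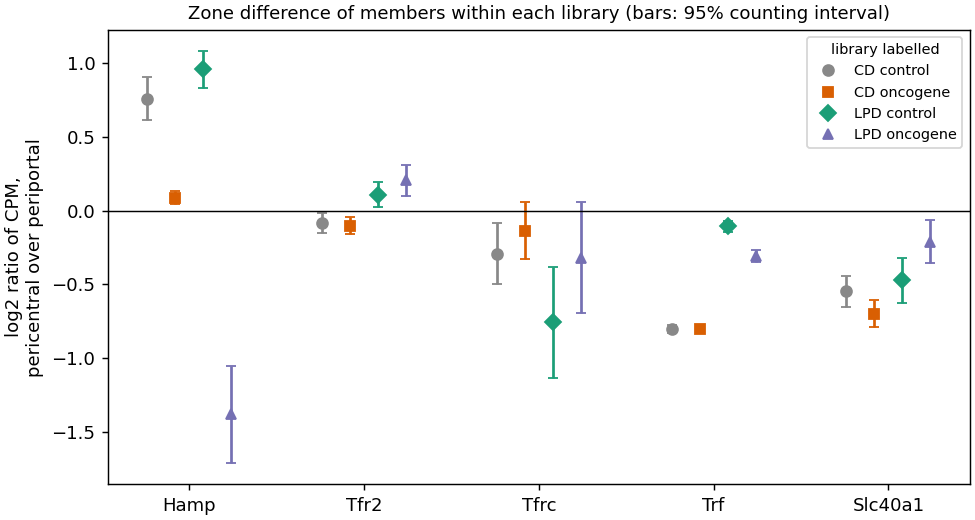
Points give the log2 ratio of CPM, pericentral over periportal hepatocytes, for 5 members in each library by its label, with 95% counting intervals and a line at 0. Trf and Slc40a1 lay below 0 in all 4 libraries, and Hamp ran from -1.38 to 0.96.

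Transferrin stood at 1523 CPM (1511 to 1534) and 1789 CPM (1778 to 1801) in hepatocytes on CD. On LPD it stood at 2106 CPM (2085 to 2127) and 2059 CPM (2037 to 2080). The LPD libraries lay above both CD libraries by 0.20 to 0.47 on the log2 scale, within 2-fold. On CD the ratio between labels was 0.23 (0.22 to 0.25), but 0.06 in the periportal, 0.07 in the midzonal and 0.06 in the pericentral zone. On LPD the sign of the small ratio, -0.03, turned with the setting, between -0.11 and 0.08. In the other named classes Trf stood at 585 to 2416 CPM and is not read as expression there. Ranges over the libraries overlapped with that of hepatocytes except in stellate nuclei (1055 to 1425 CPM). Within each library, Kupffer nuclei were also below hepatocytes, at 1314, 1639, 858 and 984 CPM, and so were T or NK nuclei. In the unnamed clusters led by haemoglobin genes it stood at 2900.5, 4629, 3608 and 4354 CPM, above the hepatocytes of each library by 1.71 to 2.59 times, as their hepatocyte list was.

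Ferroportin, Slc40a1, stood at 109.6 CPM (107 to 113) and 117 CPM (114 to 120.3) in hepatocytes on CD. On LPD it was at 121 CPM (117 to 127) and 167 CPM (161 to 174). LPD oncogene was above LPD control by 0.46 (0.38 to 0.54), the reverse of Hamp in this pair, and the labels on CD differed by 0.10 (0.04 to 0.15), a sign that turned with the setting (-0.16 to 0.28). Stellate nuclei held 161 (138 to 188), 116 (98.7 to 135), 164 (131 to 202) and 175 CPM (126 to 236). Their intervals lay above those of hepatocytes in both libraries labelled control and overlapped with them in both labelled oncogene.

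Kupffer nuclei, the resident liver macrophages, were the chief site of Slc40a1. There were 158, 269, 313 and 775 of them, with all 11 markers detected in each library. On CD they held 1708 CPM (1549 to 1878) and 849.8 CPM (762 to 945), and on LPD 1506 CPM (1368 to 1654) and 1531 CPM (1446 to 1619). This is 7.25 to 15.6 times the hepatocyte level of the same library. A UMI of Slc40a1 was found in 65.8%, 53.9%, 68.1% and 66.5% of Kupffer nuclei against 5.85%, 7.10%, 3.38% and 2.81% of B nuclei. Median depths were 1306.5, 1255, 831 and 938 UMIs in Kupffer nuclei. The library labelled CD oncogene was the low one, by -1.01 (-1.22 to -0.80) against CD control, while the LPD labels differed by 0.02 (-0.14 to 0.18). On CD it was 1 of 3 members tested past 2-fold lower, at the limit itself, and Hamp, read as background, was higher, beside 9.02% of 2671 genes higher and 4.94% lower. The other members had at most 33 UMIs each in Kupffer nuclei of a CD library, apart from Trf, which differed by 0.32 (0.13 to 0.51). On LPD neither of 2 members tested was past 2-fold, beside 1.16% of genes higher and 1.07% lower. Nor was either past 2-fold in all 4 diet pairs, beside 1.71% of 2334 genes higher and 1.8% lower.

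Class markers moved with this difference. Kupffer markers summed to 6814, 3726, 6385 and 6481 CPM, and the hepatocyte list in these nuclei to 0.672, 0.814, 0.472 and 0.379 of the hepatocyte level. Per 1000 marker UMIs, Slc40a1 stood at 251 (227 to 276), 228 (204 to 254), 236 (214 to 259) and 236 (223 to 250), and all intervals overlapped, so the difference past 2-fold did not hold on that scale. Cd163, the haemoglobin scavenger and itself a marker in that list, was at 221, 95.5, 227 and 373 CPM, and Hmox1, which breaks down haem, at 28.1, 72.9, 72.4 and 163 CPM.

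The other BMP-SMAD genes of hepatocytes were mostly within 2-fold between injection labels. Of 17 tested on CD, 2 were past 2-fold higher in the library labelled oncogene and 0 lower, with a median log2 ratio of -0.07, beside 2.45% of all genes higher and 2.09% lower. They were Atoh8, a transcription factor and BMP target of hepatocytes, at 34.5 against 10.5 CPM, and Fgl1, a hepatocyte-secreted BMP antagonist, at 206 against 85.6 CPM. Of 16 tested on LPD, 2 were higher and 1 lower, with a median of 0.06, beside 1.56% and 1.03% of all genes: Fgl1 at 486 against 83.5 CPM, Smad9, a BMP-activated SMAD, at 72.3 against 28.4 CPM, and Atoh8 at 26.9 against 67.8 CPM. Atoh8 thus differed in the direction of Hamp on each diet, while Fgl1 was higher in the library labelled oncogene on both.

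Of the BMP-SMAD list, the genes given here spanned smaller ranges in hepatocytes than Hamp did. Bmpr1a, the type I receptor, stood at 151, 144, 183 and 190.3 CPM, and Smad1, the signal carrier, at 79.4, 78.4, 80.01 and 86.5 CPM. Hjv, hemojuvelin, stood at 80.5 and 89.0 CPM on CD and 43.1 and 37.9 CPM on LPD. Tmprss6, the protease that cuts hemojuvelin, was at 184, 240, 188 and 137 CPM. Smad7, the inhibitory SMAD, was at 15.6, 29.7, 45.5 and 43.8 CPM. Across diets, 1 of 17 genes, Id3, a target of BMP-SMAD signals, was past 2-fold lower in all 4 LPD over CD pairs, at 55.1, 25.5, 9.32 and 6.83 CPM. Of all 6492 genes tested in these pairs, 1.36% were lower and 2.5% higher throughout.

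Of the iron handling list in hepatocytes, 2 of 19 genes tested were past 2-fold higher on CD and 1 lower, with a median of -0.18, and 4 of 20 higher on LPD, with a median of 0.00. The shares of all genes were 2.45% higher and 2.09% lower on CD, and 1.56% higher on LPD. Ceruloplasmin, Cp, which oxidises iron for loading onto transferrin, was higher in the library labelled oncogene on both diets, at 1356 against 531 CPM and 1324 against 649 CPM. Steap4, a metalloreductase, was likewise at 77.3 against 30.8 CPM and 153 against 25.9 CPM. On LPD, Hpx and Hp, the plasma scavengers of haem and haemoglobin, were higher at 283 against 131 CPM and 381 against 179 CPM. On CD, Blvrb, a biliverdin reductase, was lower at 35.9 against 84.9 CPM. Slc39a14, an importer of iron not bound to transferrin, stood at 315, 485, 646 and 1131 CPM, and Fth1, the ferritin heavy chain, at 70.02, 83.5, 100.1 and 147 CPM.

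Of the IL6-STAT3 list, none of 6 genes tested was past 2-fold between labels on either diet. Over all genes, 2.45% were higher and 2.09% lower on CD, and 1.56% and 1.03% on LPD. Il6ra, the IL6 receptor, was the 1 gene of the list past 2-fold higher in all 4 LPD over CD pairs, beside 2.5% of 6492 genes. It stood at 75.4, 148, 470 and 495 CPM, and Stat3 at 169, 210, 239 and 368 CPM. Saa1, an acute phase product, was at 2.88, 11.1, 2.98 and 6.08 CPM, and Crp at 595, 629, 445 and 425 CPM. In sinusoidal endothelium, Inhbb, a chain of activin B, which can also act on Hamp, was at 4.22, 15.9, 46.8 and 84.9 CPM. Both CD values were sparse, under the 20 CPM set for a test.

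Along the lobule, 6 of 26 BMP-SMAD genes were higher and 3 lower in pericentral hepatocytes by edgeR, with a median log2 change of 0.05 against 0.00 over all genes. Over all genes 11.9% were higher and 12.9% lower, and 3 of 26 is near that share. The ligand genes parted, with Bmp7 higher by 1.54 (SE 0.26) and Bmp5 by 1.12 (SE 0.24), while Bmp4 fell by 2.12 (SE 0.23, adjusted p = 7.89e-06). All of these ligands were sparse in hepatocytes, Bmp4 at 3.24 to 4.05 CPM, Bmp5 at 0.753 to 3.69 CPM and Bmp7 at 1.76 to 4.30 CPM. So was Bmper, at 0.373 to 4.25 CPM, which fell by 2.48 (SE 0.36, adjusted p = 0.00014). The receptor genes Acvr1 and Acvr2a and the hemojuvelin-binding Neo1 were higher by 0.20, 0.18 and 0.19. Id2 fell by 0.53 and Smad6, an inhibitory SMAD, was higher by 0.61. Of 27 iron handling genes, 4 were higher and 6 lower, with a median of 0.06. Blvrb was higher by 1.79 (SE 0.12, adjusted p = 2.06e-06) and Slc25a37, mitoferrin, by 0.57. Slc48a1, a haem transporter, was higher by 0.69 and Fbxl5, which degrades iron-regulatory protein, by 0.51. Lower genes included Hpx, which fell by 1.30, Hp by 0.75, Slc39a14 by 0.50, Slc39a8 by 0.46, Cp by 0.28 and Steap4 by 0.26. Of 9 IL6-STAT3 genes 2 were lower, Jak1 and Stat3, which fell by 0.27 and 0.23.

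Nuclei with a transgene UMI allowed a comparison within 1 library. In the library labelled CD control, 82 of 6538 hepatocytes were positive, and 80 of these scored as pericentral. That score holds Glul, Cyp2e1, Cyp1a2 and Lgr5, which the paper reports as high in oncogene-expressing hepatocytes. The paper places those cells mostly in the periportal and midzonal areas, so the score does not give their position. Positive nuclei were 0 of 7900 in CD oncogene, 0 of 6339 in LPD control and 5 of 5544 in LPD oncogene. At 3 counts, the zeros allow up to 0.0380% and 0.0473% of nuclei with a UMI, which is no limit on nuclei that carry the genes. Hamp in positive nuclei was at 79.5 CPM against 75.2 in negative ones, a log2 ratio of 0.08 (-0.30 to 0.44) from 64 UMIs, and -0.21 (-0.59 to 0.15) within the pericentral zone. A difference in Hamp was not detectable at this depth. Trf was lower in positive nuclei by -0.81 (-0.92 to -0.70), and by -0.47 (-0.58 to -0.36) within the pericentral zone. Slc40a1 differed by -0.61 (-1.06 to -0.20) and Tfr2 by -0.28 (-0.51 to -0.06) within that zone. Whether such levels were particular to positive nuclei was not tested. The 832 nuclei of this library in the cluster led by Glul and Slc1a2 held 767, 66.8 and 211 CPM of Trf, Slc40a1 and Tfr2. Positive pericentral nuclei held 866, 60.1 and 215 CPM. Hamp stood at 52.1 CPM in that cluster and 80.1 CPM in these positive nuclei. The cluster was not split by transgene UMIs. Positive nuclei were deeper, at a median of 7571.5 against 6008 UMIs there, and Bmp6 had 0 UMIs in all 82, which allows up to 3.72 CPM.

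Finally, genes were ranked by likeness to each member over 45 points, each a class or hepatocyte zone in 1 library, by Pearson's r of log2(CPM + 5) among 11628 genes. These points share libraries, depth and hepatocyte RNA, so r is descriptive. Hamp was most like G6pc, the last enzyme of glucose production (r = 0.82), Mug1 and Gnmt. Bmp2 was most like Plekhg1 (r = 0.91) and Bmp6 like Srgap1 (r = 0.93) and the endothelial phosphatase gene Ptprb (r = 0.92). Tfr2 was most like Mlxipl, the carbohydrate response factor (r = 0.94), and Trf like Gc, which encodes the vitamin D binding protein (r = 0.89). Tfrc was most like Lcp1 (r = 0.77), a leukocyte actin-binding gene, and Id1 like Crim1 (r = 0.83). Slc40a1 was most like Rims3 (r = 0.86), with Siglec1 and Cd163, both macrophage receptors, next. Over the 12 hepatocyte zone points alone, Hamp was most like Stag2 (r = 0.95) among 7585 genes.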

How the data were processed

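Single-nucleus RNA-seq counts (10x Chromium 3′ chemistry) were taken as the authors deposited them: UMI counts per gene and barcode for 1 library in each of 4 groups. Per the file headers, the labels and the study's methods, reads were processed with Cell Ranger 9.0.1 on mm10 with 2 human transgenes, and Seurat 5 followed. Nuclei with 200 to 7000 genes and at most 21% mitochondrial UMIs were kept, as in the study. Counts without the members were log-normalised over 5000 variable genes, corrected for library by a Harmony procedure written anew (23 components) and clustered by the Louvain method (20 neighbours, resolution 0.4; Python 3.11.15, scikit-learn 1.9.0, igraph 0.11.9). A class needed 3 or more markers and 50% of its list raised 3-fold; deeper second clusters of a class (3-fold) were left out as doublets, and 5901 nuclei led by haemoglobin genes stayed unnamed. Counts were summed per library and class. With 1 library per group no test was made: ratios carry exact conditional intervals, CPM exact Poisson intervals and shares Clopper-Pearson intervals, all at 95%. A gene was tested when it had at least 20 CPM in 1 set and 50 UMIs, and called past 2-fold on log2(CPM + 5). Zone contrasts used edgeR 4.0.16 (quasi-likelihood, TMM, library as a block, R 4.3.3) on 12 sums, with Benjamini-Hochberg adjustment over all genes kept and a threshold of 0.05; the code was tested on simulated data. The replicates were 4 libraries, and nothing says how many mice each held. These p-values measure the spread of the zone difference between libraries, since the block removes differences in level. DESeq2 1.42.0, other scalings, filters, clusterings and left-out libraries were alternatives, of which 3 (class-marker scaling, and hepatocytes with the haemoglobin-led or without the mitochondria-led clusters) were chosen after seeing the data. All 8 members were named in the hepatocyte comparisons and elsewhere where they were not too sparse. Pathway genes were named among the highest and lowest past 2-fold or, in the zone tests, when past the threshold, and levels of receptors, sensors and acute phase genes were added after their values were seen. Members, lists and class thresholds were chosen with earlier results of these data known. Promoter windows came from RefSeq (GRCm38.p6), in which 4 of the 8 members matched.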

Additional observations from a re-analysis of the deposited data

Results flagged for a closer look

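Several members had opposite differences between injection labels on the 2 diets, or opposite zone slopes between libraries. With 1 library per group none of these was tested, and on CD the labels and the transgene UMIs disagree. With the CD libraries exchanged, the CD ratio of Hamp in hepatocytes would be -2.63 and that of Tfrc 0.27, the sign each had on LPD, and likewise for the other ratios between labels given here.

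In hepatocytes the log2 ratio of oncogene over control label was 2.63 on CD and -2.37 on LPD for Hamp, -0.27 and 0.20 for Tfrc, and 0.233 and -0.0328 for Trf, whose LPD sign turned with the setting. The same split appeared in sinusoidal endothelial nuclei for 2 hepatocyte genes, at 2.07 and -3.60 for Hamp and 0.75 and -0.80 for Tfr2. The hepatocyte list stood at 0.417 to 0.946 of the hepatocyte level in those nuclei, and the part of hepatocyte RNA in these values was not tested.

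Along the lobule, the pericentral over periportal ratio of Hamp was 0.76 in CD control, 0.0866 in CD oncogene, 0.96 in LPD control and -1.38 in LPD oncogene. For Tfr2 the slope was -0.0840 and -0.104 on CD against 0.107 and 0.206 on LPD.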

How the results depend on the processing

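The count of members past 2-fold kept its value under every alternative run: 1 of 5 in hepatocytes on each diet, and 0 in all 4 diet pairs in hepatocytes, sinusoidal endothelium and Kupffer nuclei. Kupffer nuclei without library correction of the clusters were too few and were not run, nor were nuclei with 2 or more transgene UMIs, of which there were 9. Values for single members kept their size or side in 395 cases, moved in 48, lost a call in 5 and gained 1. Slopes of Tfrc, Trf and Slc40a1 along the lobule lost their calls without the library block (adjusted p = 0.724, 0.281 and 0.315), and Trf also when either CD library was left out. In the sinusoidal gate, Trf passed only without CD control (-0.45, adjusted p = 0.0212).

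Without the library block, the pericentral over periportal contrast gave 137 genes higher and 105 lower instead of 1542 and 1661, with 1106 to 1427 and 1147 to 1561 when 1 library was left out. The midzonal contrast, 72 higher and 15 lower, gave 0 and 0 without the block (73 at an unadjusted p under 0.05), 22 higher with zones cut within each library, and 28 to 63 higher and 4 to 13 lower with 1 library left out. Its lower count was 31 with DESeq2, 23 with all genes of 10 or more UMIs and 29 without Sds, Pck1, Hal and Gls2 in the score. The sinusoidal gate, 38 higher and 37 lower, gave 11 and 15 with DESeq2, 3 and 4 without the block, and 21 to 34 and 27 to 43 with 1 library left out. The cause was not tested. No paired analysis was possible because each diet and injection group held 1 library; in the zone contrasts the library was the block.

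Counting intervals do not hold the spread between mice, so no difference between libraries can be given to diet or oncogenes. Sparse members, Id1 in each class and Tfrc in Kupffer nuclei, were limited by depth.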

Other observations

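In sinusoidal endothelium, 1 of 11 iron handling genes, the ferritin light chain gene Ftl1, was past 2-fold higher in all 4 LPD over CD pairs, at 243 and 182 CPM on CD and 505 and 521 CPM on LPD. Hp and Hpx, hepatocyte products, were lower in all 4 pairs there, at 744, 792, 238 and 345 CPM and at 524, 654, 199 and 247 CPM. Over all 3579 genes tested in this class, 1.51% were higher and 2.1% lower in all 4 pairs. In Kupffer nuclei, 1 of 10 iron handling genes, Hp, and 1 of 5 IL6-STAT3 genes, Crp, both made by hepatocytes, were lower in all 4 pairs. The share of all 2334 genes tested there was 1.8% lower.

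Between labels on CD, Kupffer nuclei held 103 against 40.2 CPM of Spic, a transcription factor of iron-recycling macrophages, oncogene label first. Blvrb stood there at 70.4 against 177 CPM. Of all genes, 9.02% were past 2-fold higher and 4.94% lower, and Kupffer markers summed to 3726 against 6814 CPM. On LPD, Hmox1 stood at 163 against 72.4 CPM in these nuclei, beside 1.16% of genes past 2-fold higher. In sinusoidal endothelium the SMAD target Id3 stood at 44.2 against 155 CPM on CD and 79.9 against 140 CPM on LPD. The shares of all genes past 2-fold lower there were 5.89% and 1.89%.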
